A study of Mus musculus with 6 samples.

Results

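The genes described here are those of the ISG15 conjugation system: Usp18, Isg15, Uba7, Ube2l6, Herc6 and Trim25. They were taken by gene name from a table of RNA-seq values, and all 6 were found among its 53618 named genes, each in 1 row. The libraries were made from leukemia cells of the spleen, sorted as GFP+Lin-c-Kit+. These cells carried AE9a, a shortened form of AML1-ETO that causes acute myeloid leukemia in mice, with GFP as its marker. They had been made by retroviral transduction of fetal liver cells and passed into irradiated C57BL/6 recipients. Once the recipients were sick they were injected with oil (labelled Usp18+/f, n = 3) or with tamoxifen (labelled Usp18+/delta, n = 3), and cells were sorted 3 days after the first of 3 injections, with 1 library per mouse. Cells of both groups carried 1 floxed Usp18 allele and UBCER-Cre, a Cre recombinase that is made in all tissues and that tamoxifen activates. Tamoxifen was given to only 1 of the groups, so that its own effect and that of the deletion cannot be told apart. The recipients kept their own immune cells, which were to be removed by the sort.

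ISG15 is a small protein of the ubiquitin family that is attached to other proteins after an interferon signal. UBA7 (the E1) activates it, UBE2L6 (the E2) carries it, and an E3 ligase, chiefly HERC6 in the mouse, joins it to targets, while TRIM25 is a ligase for both ubiquitin and ISG15. USP18 removes ISG15 from proteins and, apart from this activity, binds the type I interferon receptor and limits its signaling. All 6 genes are themselves known to be induced by interferon, so USP18 is both a target of the pathway and a brake on it.

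The libraries held from 19172471 to 23785143 reads. Tamoxifen 1 stood apart from the others: its median correlation with the other libraries was 0.913 against 0.981 to 0.990 for the rest, and mitochondrial transcripts made up 0.00923% of its reads against 1.01% to 1.56%. Its values were also tied to the GC content of the transcripts, with a Spearman correlation across genes of 0.71 against -0.23 to 0.035 in the other libraries. The main results are therefore given with and without it. Kit, the marker of the sort, was present in every library, from 4687 to 10976 normalized counts. The values are normalized counts, that is read counts divided by 1 size factor per library. Log2 fold changes are differences of log2(value + 1) from limma, given as tamoxifen minus oil, and adjusted p-values cover all 12298 genes tested.

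The targeted gene was not lower in the libraries labelled tamoxifen. Usp18 (GRCm38 chr6:121245906-121270917, plus strand) had 217, 214 and 176 normalized counts in oil 1, 2 and 3. It had 477, 329 and 284 in the libraries labelled tamoxifen 1, 2 and 3. Every library labelled tamoxifen was above every oil library, and the lowest of them was 30.5% above the highest oil value. The mean was 203 ± 22.8 (SD, n = 3) in oil and 363 ± 101 (SD, n = 3) in tamoxifen. The difference on the log2 scale was 0.81 (standard error 0.25, 95% interval 0.22 to 1.40), which did not pass the threshold after adjustment (limma, adjusted p = 0.666). Without tamoxifen 1 it was 0.60, with an interval of 0.26 to 0.94 (limma, adjusted p = 0.181). On the same 5 libraries DESeq2 gave 0.62 and called the gene (adjusted p = 0.0416), and over all alternatives the adjusted p ran from 0.0348 to 0.861. The rows sum reads over whole genes, so reads from the floxed exons could not be separated from the rest, and the total neither shows whether the allele was deleted nor checks the labels. Groups are named below as the labels give them. In sorted but bulk samples, more RNA per cell and more cells with the RNA cannot be told apart.

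**Figure D1:**
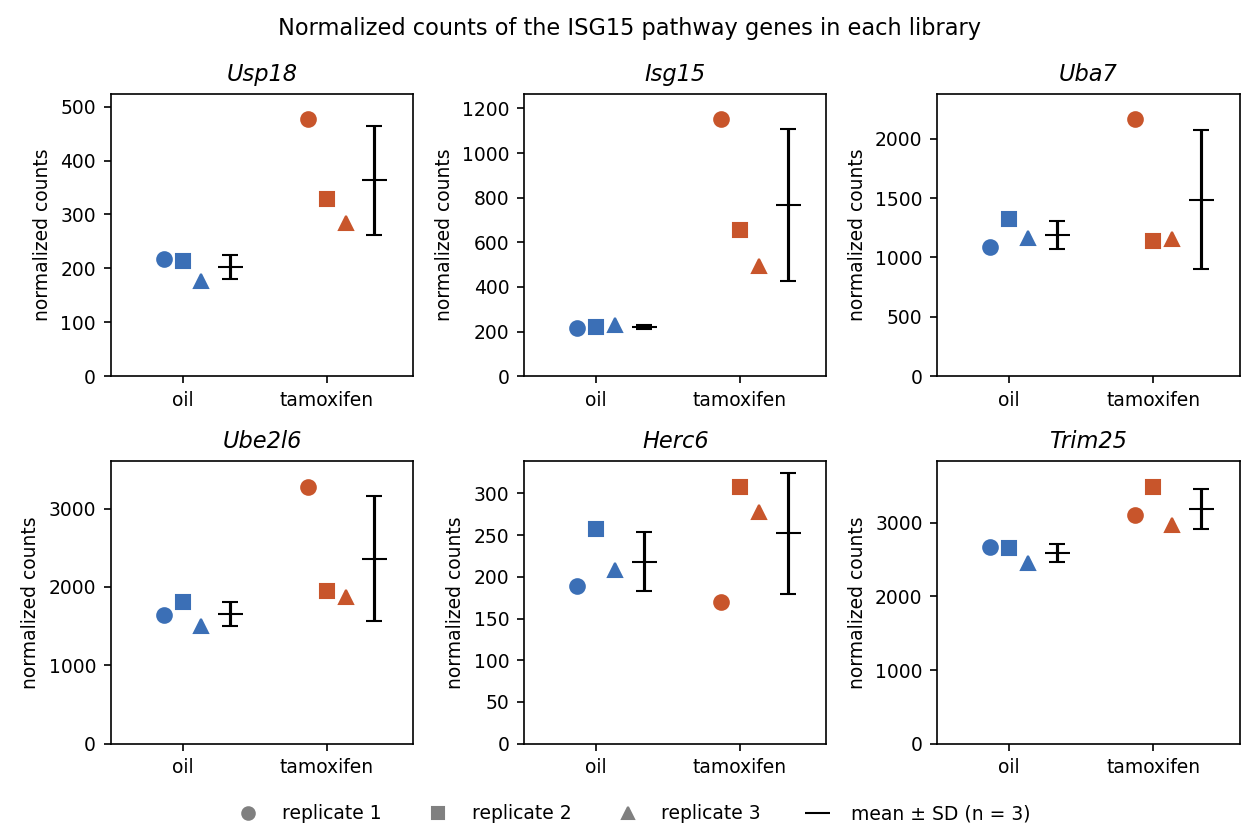
Normalized counts (vertical axes, from 0) of the 6 genes in the 3 oil and 3 tamoxifen libraries, with 1 symbol per replicate number and the mean ± SD beside each group. Usp18, Isg15, Ube2l6 and Trim25 have no oil library as high as any tamoxifen library, while in Uba7 and Ube2l6 the tamoxifen 1 library lies far above the other two of its group.

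Isg15, the modifier itself, had the largest difference of the 6 genes. Isg15 (chr4:156199424-156200818, minus strand) had 214, 219 and 231 normalized counts in oil 1, 2 and 3. The libraries labelled tamoxifen 1, 2 and 3 had 1152, 656 and 495. The oil libraries varied by 4.04% (coefficient of variation), which is below the 6.64% that counting alone gives at the lowest read number of this gene, while the tamoxifen libraries spread by 44.6%. The lowest tamoxifen library was 114% above the highest oil library. Means were 221 ± 8.94 (SD, n = 3) and 767 ± 342 (SD, n = 3), a ratio of 3.47, or 2.60 without tamoxifen 1. The difference on the log2 scale was 1.70 (standard error 0.32, interval 0.94 to 2.46) and was not called in 6 libraries (limma, adjusted p = 0.580). It was called without tamoxifen 1, at 1.36 with an interval of 1.04 to 1.68 (limma, adjusted p = 0.00397), and by DESeq2 on all 6 libraries, at 1.80 (adjusted p = 0.000361). Its adjusted p over all alternatives ran from 9.33e-14 to 0.861.

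The start of Isg15 is shown because it holds the letters of the interferon-stimulated response element (ISRE), the site to which the ISGF3 complex binds after an interferon signal. The stretch is the 250 bases before the RefSeq start (GRCm38.p6, chr4:156200819-156201068, minus strand), written 5′ to 3′, and capitals mark the matches to GAAANNGAAA, searched on both strands.
Isg15 upstream: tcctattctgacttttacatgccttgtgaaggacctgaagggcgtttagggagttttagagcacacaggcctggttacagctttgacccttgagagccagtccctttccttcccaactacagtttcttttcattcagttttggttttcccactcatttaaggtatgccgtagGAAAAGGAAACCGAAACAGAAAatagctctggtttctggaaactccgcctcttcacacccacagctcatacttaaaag
Isg15 held 3 overlapping matches, GAAAAGGAAA, GAAACCGAAA and GAAACAGAAA, which together run from base -78 to base -57 before the start. Of the 32851 RefSeq windows of this length, 2.98% held at least 1 such match. The table of promoters held 5 of the 6 genes (Isg15, Uba7, Ube2l6, Herc6 and Trim25), and the other 4 of these had no match to the 10 letters in their windows. Uba7 matched the shorter form AAANNGAAA, which 9.37% of windows held and which the 3 longer matches of Isg15 also contain, on the opposite strand from base -27 to base -19. That match lies inside the gene as GENCODE draws it, and capitals mark it in the 30 bases around it (chr9:107975534-107975563, plus strand).
Uba7 site: gtctagTTTCACTTTtggtttcctgaaatc
A match here is of letters in one window only.

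The 2 enzymes that activate and carry ISG15 differed less than the modifier. Uba7 (chr9:107975505-107984060, plus strand) had 1089, 1321 and 1164 normalized counts in oil 1, 2 and 3. The libraries labelled tamoxifen 1, 2 and 3 had 2165, 1138 and 1159. Tamoxifen 1 was 1.82 times the oil mean, whereas tamoxifen 2 and 3 were 0.955 and 0.973 times it and lay within the oil range. The log2 fold change was 0.26 with an interval of -0.41 to 0.92 (limma, adjusted p = 0.677), and without tamoxifen 1 it was -0.048 with an interval of -0.27 to 0.17, so that the sign of the Uba7 difference rested on that library. Ube2l6 (chr2:84798828-84810335, plus strand) had 1646, 1809 and 1507 normalized counts in oil 1, 2 and 3. The libraries labelled tamoxifen 1, 2 and 3 had 3279, 1944 and 1866. The groups did not overlap, but the gap between the highest oil and the lowest tamoxifen library was 3.16%, close to the 2.48% that counting alone gives at its lowest read number. The log2 fold change of Ube2l6 was 0.47 with an interval of -0.12 to 1.06 (limma, adjusted p = 0.666), and 0.21 without tamoxifen 1, with an interval of -0.00084 to 0.42.

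Of the ligases, Trim25 was higher in every library labelled tamoxifen and Herc6 was higher in 2 of 3. Herc6 (chr6:57581000-57664632, plus strand) had 189.5, 258 and 208 normalized counts in oil 1, 2 and 3. The libraries labelled tamoxifen 1, 2 and 3 had 170.0, 308 and 278. Herc6 was lowest of all in tamoxifen 1, whereas tamoxifen 2 and 3 were above the oil range by at least 8.03%. Its log2 fold change was 0.17 with an interval of -0.50 to 0.85 (limma, adjusted p = 0.762) and became 0.43 without tamoxifen 1, with an interval of 0.075 to 0.79 (limma, adjusted p = 0.325). Trim25 (chr11:88999376-89020293, plus strand) had 2671, 2651 and 2447 normalized counts in oil 1, 2 and 3. The libraries labelled tamoxifen 1, 2 and 3 had 3099, 3489 and 2971. Of the 6 genes Trim25 was the one in which tamoxifen 1 did not lie at an end of its group, and the lowest tamoxifen library was 11.3% above the highest oil library. Its log2 fold change was 0.30 with an interval of -0.028 to 0.62 (limma, adjusted p = 0.666) and 0.32 without tamoxifen 1, with an interval of 0.11 to 0.52 (limma, adjusted p = 0.208). DESeq2 called Trim25 on those 5 libraries (adjusted p = 0.0398), within a range of 0.0398 to 0.861 over all alternatives.

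For the 6 genes as a list, limma called none at an adjusted p under 0.05 in 6 libraries, as it called 0% of the 12298 genes in either direction. At an unadjusted p under 0.05 it found 2 of the 6 higher (Usp18 and Isg15), where 3.23% of all genes were higher and 1.24% lower. edgeR also called none of the 12298 genes, and DESeq2 called 1 of the 6, Isg15, beside 0.61% of all genes higher and 0.0244% lower. Without tamoxifen 1, limma called Isg15 alone of the 6, where 0.309% of all genes were called higher and 0.0244% lower. DESeq2 on the same 5 libraries called Usp18, Isg15 and Trim25, where 1.57% of all genes were called higher and 0.488% lower. With 1 weight per library in limma, Usp18 and Isg15 were called, where 3.82% of all genes were called higher and 2.54% lower. The weight of tamoxifen 1 was 0.038 and those of the other libraries 0.956 to 3.37. Fits with library weights, here and below, thus came close to leaving tamoxifen 1 out. In 4 of the 6 genes (Usp18, Isg15, Ube2l6 and Trim25) every tamoxifen library exceeded every oil library, where this held for 7.86% of all genes tested and the reverse for 9.69%. The median log2 fold change of the 6 genes was 0.38, and 0.37 without tamoxifen 1, beside -0.017 and -0.021 over all genes.

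**Figure D2:**
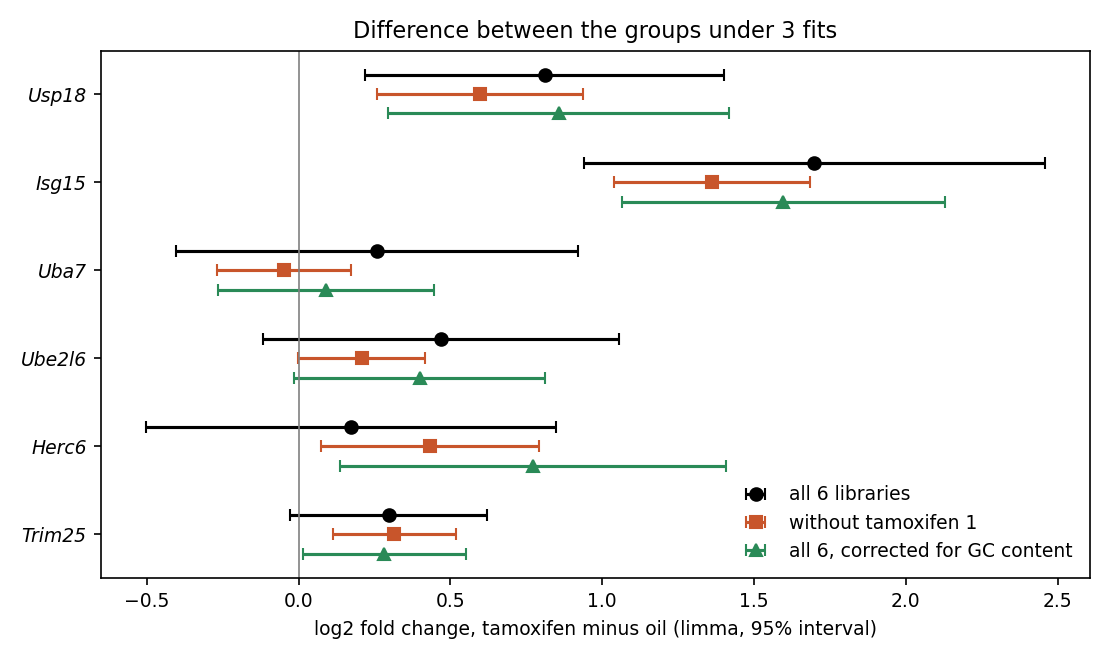
Log2 fold change (horizontal axis, tamoxifen minus oil) of each gene from limma with its 95% interval, in all 6 libraries, without tamoxifen 1, and in all 6 after correction of each library for GC content. The interval of Isg15 stays above 0.9 and that of Usp18 above 0.2 in each of the 3 fits, Uba7 includes 0 in each, and Herc6 moves from 0.17 to 0.77 with the correction.

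The deviation of tamoxifen 1 was measured against genes of like composition. For each gene the log2 value in tamoxifen 1 was set against the median of the other 5 libraries, and this deviation was compared with that of tested genes within 1 percentage point of its GC content. Isg15 (GC 52.8%) deviated by 2.31, where genes of like GC content had a median of 0.37, which put it at the 99.3rd percentile of them. Usp18 (GC 49.1%) deviated by 1.13 against a median of -0.092, at the 96.4th percentile. The other 5 libraries include the 3 oil libraries, so that these deviations hold the difference between the groups as well. Against the mean of tamoxifen 2 and 3 alone, Isg15 was higher by 1.01 in tamoxifen 1 (88.9th percentile of genes of like GC content) and Usp18 by 0.64 (88.0th percentile). Uba7 (GC 54.9%) deviated by 0.90 against 0.55, at the 74.0th percentile, and Ube2l6 (GC 51.9%) by 0.86 against 0.25, at the 84.5th. Herc6 (GC 39.9%) deviated by -0.60, but genes of its composition had a median of -1.67, so that it stood at their 88.8th percentile. Trim25 (GC 50.5%) deviated by 0.21 against 0.086 and stood near the middle, at the 56.8th percentile. Against the mean of tamoxifen 2 and 3 alone, Trim25 in tamoxifen 1 deviated by -0.055 beside a median of 0.082, at the 41.6th percentile. Measured in that way, Uba7, Ube2l6 and Herc6 deviated by 0.91, 0.78 and -0.78, at the 76.3rd, 82.7th and 86.2nd percentiles. After correction of every library for GC content the log2 fold change of Herc6 was 0.77 with an interval of 0.14 to 1.41 (limma, adjusted p = 0.654), and that of Uba7 was 0.090 with an interval of -0.27 to 0.45 (limma, adjusted p = 0.796).

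**Figure D3:**
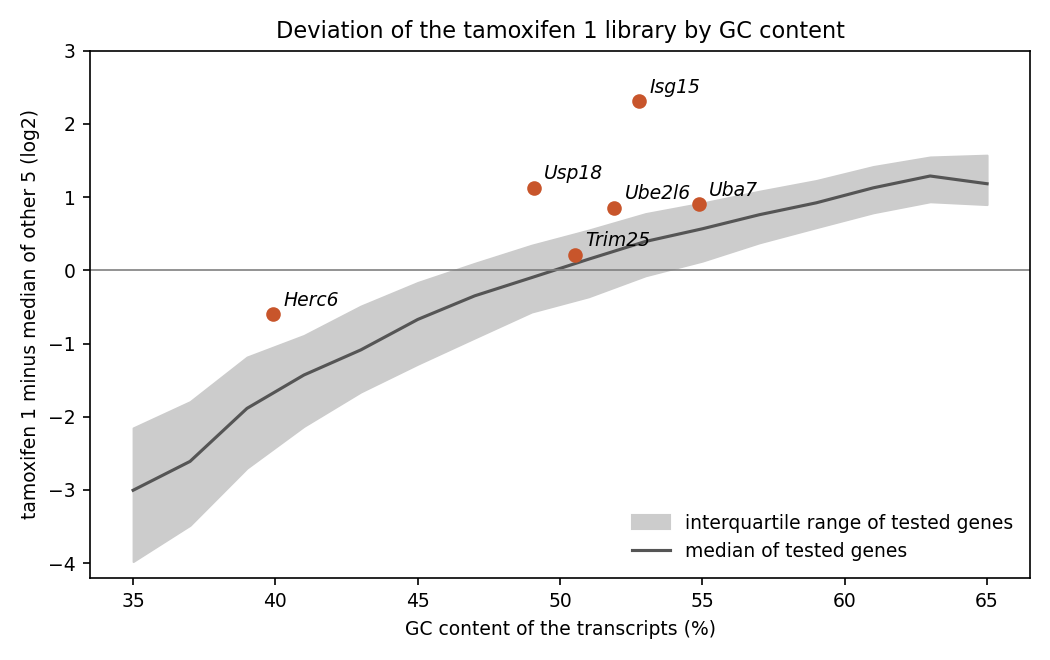
Deviation of the tamoxifen 1 library from the median of the other 5 (vertical axis, log2) against the GC content of the transcripts (horizontal axis, percent), with the median (line) and interquartile range (band) of tested genes in bins of 2 percentage points. All 6 genes lie above the median line, Isg15 at 2.31 and Usp18 at 1.13 outside the band and Trim25 at 0.21 within it.

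To compare levels between genes, normalized counts were divided by the exonic length of each gene in kb. This length joined the exons of all annotated transcripts of the gene (for Uba7, 6692 bases in 14 merged exons). It can exceed the length of the transcript that the cells make. Other lengths were not tried, so orders and ratios per kb between genes rest on this choice. In oil the order of the levels was the same in each of the 3 libraries. Ube2l6 was highest, at 829 ± 75.7 (SD, n = 3) normalized counts per kb, and Trim25 followed at 450 ± 21.6. Isg15 was at 293 ± 11.8 and Uba7 at 178 ± 17.7. Usp18 was at 72.6 ± 8.16 and Herc6 lowest, at 23.5 ± 3.79. No range of one gene in oil reached that of the next, so that with these lengths all neighbours were separated by more than their spread. Averaged over all 6 libraries, the level of Ube2l6 per kb was at the 90.5th percentile of tested genes and that of Herc6 at the 19.9th, so that the E2 and the chief ligase of the mouse lay at opposite ends of the list.

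In the libraries labelled tamoxifen the order changed at 1 place. Isg15 per kb was 1523, 867 and 654 in tamoxifen 1, 2 and 3. Trim25 per kb was 539, 606 and 516. Isg15 was therefore 0.609 to 0.719 times the level of Trim25 in oil and 1.27 to 2.83 times it in tamoxifen, and its place moved from the third to the second in each of the 3 libraries. Isg15 stayed below Ube2l6 in every library, at 0.320 to 0.405 times its level per kb in oil and 0.700 to 0.927 times in tamoxifen. The ranges of neighbouring genes overlapped in tamoxifen for Ube2l6 and Isg15 and for Uba7 and Usp18, although within each library the order held.

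**Figure D4:**
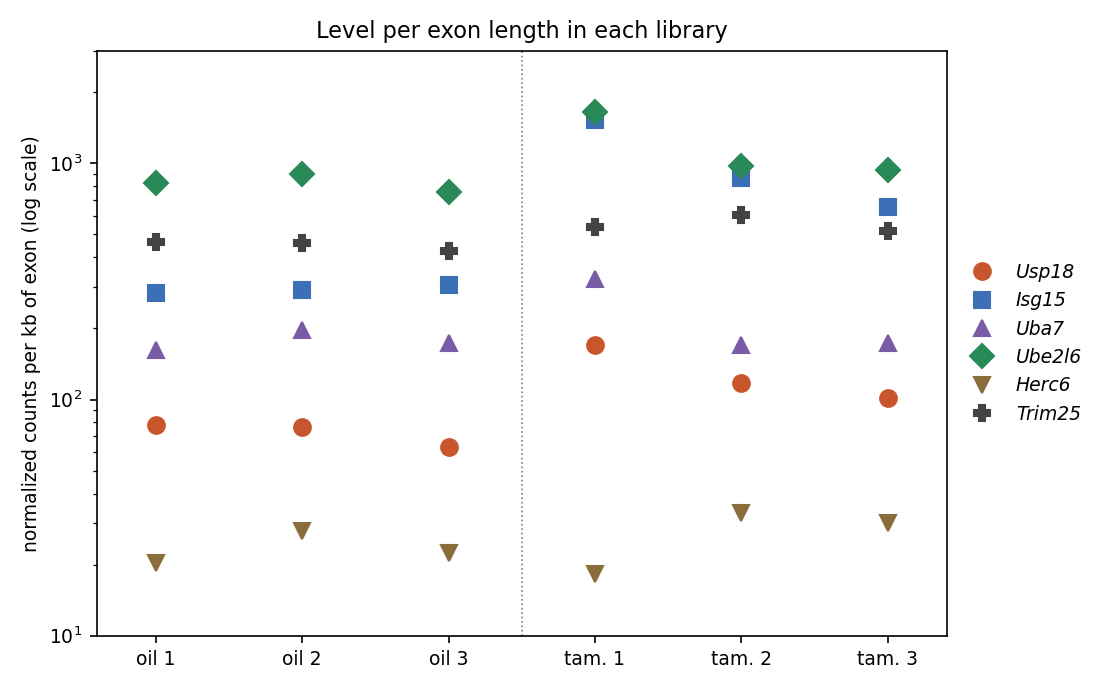
Level of each gene as normalized counts per kb of exon (vertical axis, log scale) in each of the 6 libraries (horizontal axis). Isg15 lies below Trim25 in the 3 oil libraries, at 283 to 306, and above it in the 3 tamoxifen libraries, at 654 to 1523, while the other genes keep their places.

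Ratios within a library do not depend on its size factor, and so the balance of the modifier and its enzymes against Usp18 was compared as the ratio of normalized counts. The ratio of Isg15 to Usp18 was 0.983, 1.02 and 1.31 in oil 1, 2 and 3 and 2.42, 1.99 and 1.74 in the libraries labelled tamoxifen 1, 2 and 3. The groups did not overlap, and the log2 difference was 0.89 (exact permutation test, two-sided, p = 0.1, adjusted p = 0.125 over 5 ratios), where 0.1 is the smallest p that 3 against 3 libraries allow. The other ratios lay on the opposite side, with Usp18 higher relative to its partner in tamoxifen. Uba7 to Usp18 was 5.01, 6.17 and 6.60 in oil and 4.54, 3.45 and 4.09 in tamoxifen, a log2 difference of -0.55 (exact permutation test, p = 0.1, adjusted p = 0.125). Ube2l6 to Usp18 was 7.57, 8.45 and 8.54 in oil and 6.88, 5.90 and 6.58 in tamoxifen, a log2 difference of -0.34 with the same exact permutation p. Trim25 to Usp18 was 12.3, 12.4 and 13.9 in oil and 6.50, 10.6 and 10.5 in tamoxifen, a log2 difference of -0.51 with the same exact permutation p, or -0.28 without tamoxifen 1. These 3 ratios did not overlap between the groups either. Herc6 to Usp18 did overlap, from 0.872 to 1.20 in oil and from 0.357 to 0.981 in tamoxifen (log2 difference -0.64, exact permutation test, p = 0.3, adjusted p = 0.3), and its difference was -0.16 without tamoxifen 1. All 5 ratios share the Usp18 value of each library, so they are not independent of each other.

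**Figure D5:**
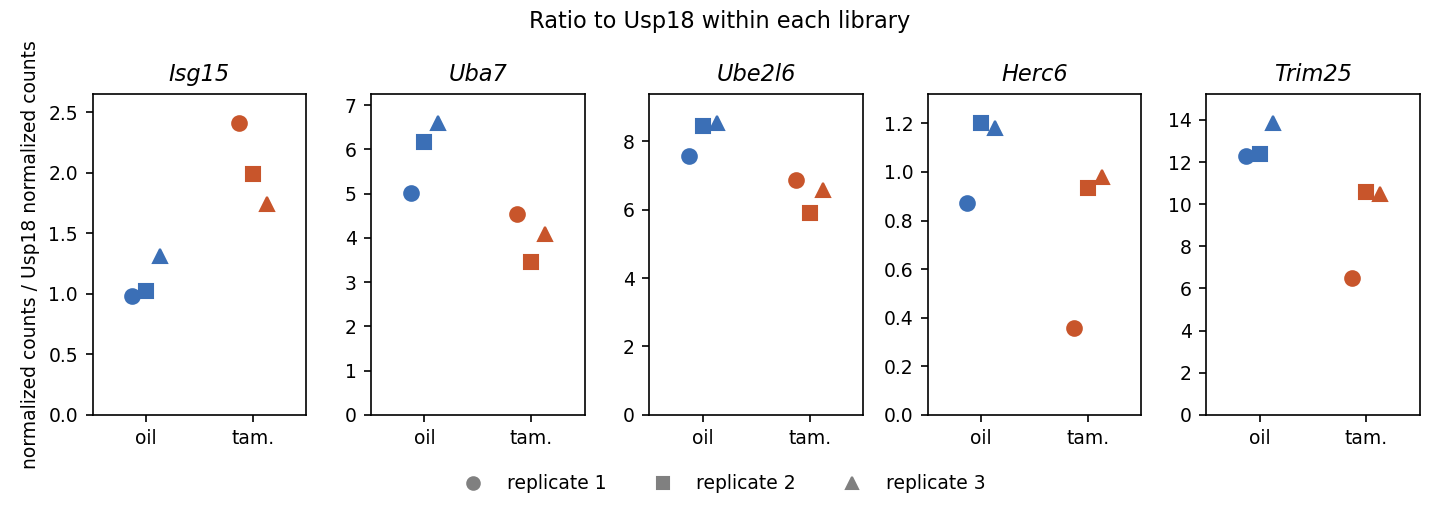
Ratio of the normalized counts of each gene to those of Usp18 in the same library (vertical axes, from 0), for the 3 oil and 3 tamoxifen libraries. The Isg15 ratio is higher in all 3 tamoxifen libraries (1.74 to 2.42 against 0.983 to 1.31), and the Uba7, Ube2l6 and Trim25 ratios are lower in all 3.

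The ubiquitin genes that correspond to these members were examined next: the E1 genes Uba1 and Uba6, the E2 gene Ube2l3, which is the closest relative of Ube2l6, the Herc1 to Herc4 ligases, and the 4 genes for ubiquitin itself. All 11 were tested, 8 were higher and 3 lower (6 and 5 without tamoxifen 1), and limma called none in either set of libraries. Their median log2 fold change was 0.067, or 0.0088 without tamoxifen 1, beside -0.017 over all genes. It was 0.20 with the GC correction and -0.068 with library weights. Over 22 alternatives it was above 0 in 21 and below 0 in 1, the fit with library weights. Uba1, the main E1 of ubiquitin, had a log2 fold change of 0.15 and Ube2l3 one of -0.091 (limma, adjusted p = 0.719 and 0.756). Without tamoxifen 1 these were -0.046 and -0.021, so that the sign of Uba1 rested on that library. Uba6, an E1 for ubiquitin and FAT10, and Herc4 were far lower in tamoxifen 1 than elsewhere, at 208 and 506 normalized counts against 883 to 1071 and 1431 to 1956 in the other libraries, and neither was called (limma, adjusted p = 0.666 for both). Their log2 fold changes went from -0.79 to -0.050 and from -0.81 to -0.27 without it. Herc2, a ligase of DNA repair, was at 2058 to 2554 in oil and 2607 to 3065 in tamoxifen. Herc1 and Herc3 had log2 fold changes of 0.065 and 0.0095 (0.13 for both without tamoxifen 1), each with groups that overlapped. Per kb, the level of Uba1 was 11.9 to 14.2 times that of Uba7 in oil and 10.7 to 14.5 times in tamoxifen (exact permutation test on the log2 ratio, two-sided, p = 0.7). The level of Ube2l3 was 0.829 to 1.06 times that of Ube2l6 in oil and 0.394 to 0.835 times in tamoxifen (exact permutation test, p = 0.2). In oil, with the merged exon lengths used here, the RNA of the ISG15 E2 was thus about as abundant per kb as that of its ubiquitin relative. That of the E1 was far less abundant than that of its own.

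Other ubiquitin-like systems (SUMO, NEDD8, UFM1, URM1, the ATG12 pathway and 3 single genes for other such proteins) had a median on the other side of 0 that lay near it without tamoxifen 1 or with the GC correction. Of 37 genes 36 were tested, 10 were higher and 26 lower, and limma called none in either set of libraries. Their median log2 fold change was -0.23 and became -0.051 without tamoxifen 1, with 13 higher and 23 lower, and -0.033 with the GC correction, with 15 higher and 21 lower. The 3 genes with the smallest unadjusted p were Ube2f, an E2 of NEDD8, Atg10, the E2-like enzyme of ATG12, and Nae1, a subunit of the NEDD8 E1. Their log2 fold changes were -0.54, -0.99 and -0.92, and -0.22, -0.31 and -0.25 without tamoxifen 1. In tamoxifen 1 these 3 genes lay -1.08, -2.29 and -2.19 from the median of the other libraries on the log2 scale, beside -0.22, -1.22 and -1.95 for genes of like GC content. In 6 genes of the list every tamoxifen library was below every oil library and in none the reverse, beside 9.69% and 7.86% of all genes.

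Upstream of the pathway, the ligands were hardly seen. Of 20 interferon genes 17 had no read in any library, and the other 3 had 5 reads in all (Ifna1, Ifna4 and Ifna7, at most 2 in a library), so that none was tested. A count of 0 allows up to 3 reads, or 2.69 to 3.83 normalized counts per library. The 7 genes of the type I interferon receptor, its kinases and the ISGF3 complex were all tested, with 4 higher, 3 lower and none called by limma, and a median of 0.26, or 0.021 without tamoxifen 1. Irf9, the DNA-binding subunit of ISGF3, was at 1434 to 1652 normalized counts in oil and 1891 to 2023 in tamoxifen, and was the one gene of the 7 whose groups did not overlap, beside 7.86% of all genes higher and 9.69% lower in that way (log2 fold change 0.35, or 0.33 without tamoxifen 1, limma, adjusted p = 0.666). Of 22 alternatives, whose adjusted p ran from 0.0351 to 0.861, 1 called it (DESeq2 without tamoxifen 1, adjusted p = 0.0351), where 1.57% of all genes were called higher and 0.488% lower. Stat2, to which USP18 binds, was at 550 to 684 in oil and 667 to 1086 in tamoxifen, and Jak1, a kinase of the receptor, at 8582 to 9312 and 5586 to 8767. The highest Stat2 value and the lowest Jak1 value were those of tamoxifen 1, and without it their log2 fold changes went from 0.40 to 0.16 and from -0.26 to -0.042.

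Downstream, 20 of 21 genes for reported targets of ISG15 were tested, with 10 higher and 10 lower and a median log2 fold change of 0.020 (11, 9 and 0.074 without tamoxifen 1). In 7 of them every tamoxifen library was above every oil library and in 2 every one was below, beside 7.86% and 9.69% of all genes. In 6 libraries limma and edgeR called none of the 20, and DESeq2 called 3 higher (Ifit1, Mx1 and Ddx58), beside 0.61% of all genes. Limma with library weights called 5 higher, these 3 among them, and 1 lower, beside 3.82% and 2.54% of all genes. Ifit1, an antiviral protein that binds viral RNA, had 32.3, 39.6 and 25.1 normalized counts in oil 1, 2 and 3. It had 298, 226 and 236 in the libraries labelled tamoxifen 1, 2 and 3. Its log2 fold change of 2.95 was larger than that of any of the 6 conjugation genes (limma, adjusted p = 0.0950), and was 2.82 without tamoxifen 1, where it was called (limma, adjusted p = 0.00183). Mx1, an antiviral GTPase, had 5.39, 9.65 and 2.79 normalized counts in oil (3 to 10 reads) and 44.7, 49.5 and 50.0 in tamoxifen, and it too was called without tamoxifen 1 (log2 fold change 3.00, limma, adjusted p = 0.0426). Ddx58, the RNA sensor RIG-I, was at 398 to 572 in oil and 787 to 870 in tamoxifen, with a log2 fold change of 0.80 (limma, adjusted p = 0.666). Ifit1 and Mx1 are interferon-stimulated genes as well as reported targets. Of 10 other genes for proteins that bind ISG15 or remove it from targets, 9 were tested and limma called none in 6 libraries, while limma with library weights called 1, Itgal, beside 3.82% of all genes called higher. Their median was -0.022, or -0.071 without tamoxifen 1, and over 22 alternatives it ran from -0.080 to 0.20, being above 0 in 8 and below 0 in 14. Itgal, the alpha chain of the LFA-1 receptor through which free ISG15 acts, was at 1173 to 1500 in oil and 1366 to 2809 in tamoxifen, Itgb2, its beta chain, at 793 to 1002 and 873 to 1214, and Usp14, a protease of the proteasome, at 2641 to 3003 and 1364 to 2738. The lowest Usp14 value was that of tamoxifen 1, and its log2 fold change was -0.42, or -0.11 without that library.

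The genes whose log2 values followed those of Isg15 and Usp18 most closely over the 6 libraries were sought among 12292 other tested genes, by Pearson correlation, as a description. For Isg15 they were Dhx58 (r = 0.996), which encodes the RIG-I-like receptor LGP2, Igtp (r = 0.994), an interferon-induced GTPase, and Sesn2 (r = 0.994), a stress-induced sestrin. Dhx58 had 231 to 234 normalized counts in oil and 479 to 937 in tamoxifen. For Usp18 they were Aqp3 (r = 0.990), a water and glycerol channel, Fam160b1 (r = 0.985) and Gngt2 (r = 0.982), a G protein gamma subunit. Aqp3 had 27.9 to 32.3 normalized counts in oil and 41.8 to 89.5 in tamoxifen. In each of these the value of tamoxifen 1 was the highest of all, as it was in Usp18 and Isg15, so that the correlations share that library, and 57 genes for Isg15 and 41 for Usp18 had an r above 0.95.

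Markers of other cells of the spleen were examined beside these results, since immune cells express the same genes. Of 12 macrophage markers 9 were tested and all 9 were higher, with a median log2 fold change of 1.01, or 1.17 without tamoxifen 1, and limma called none. At an unadjusted p under 0.05 limma found 4 of them higher, beside 3.23% of all genes, and in 4 every tamoxifen library lay above every oil library, beside 7.86%. With library weights limma called 2 of the 9 higher, Csf1r and Vcam1, beside 3.82%. Their summed level was 395 to 512 normalized counts in oil and 576 to 752 in tamoxifen, and 1 of the 12 was at 3 reads or fewer in every library. Among them C1qa had 11.6 to 16.2 normalized counts in oil and 18.2 to 60.1 in tamoxifen. Neutrophil markers summed to 5.39 to 7.72 in oil and 26.4 to 62.6 in tamoxifen, with Ly6g at 0 in all libraries. B cell markers summed to 13.5 to 27.8 and 50.0 to 57.5, with Ms4a1 at 0. T and NK cell markers summed to at most 2.89 in oil and 8.08 in tamoxifen, with Cd3e, Cd8a, Ncr1, Klrb1c, Prf1 and Eomes at 0. Dendritic cell markers overlapped between the groups, at 182 to 233 and 173 to 262. Of these 8 markers 3 were tested, with 1 higher and 2 lower. Their median log2 fold change was -0.36, or -0.20 without tamoxifen 1. Limma called none of the 3 in 6 libraries, and with library weights it called 1 lower, beside 2.54% of all genes. The macrophage, neutrophil and B cell sums were thus higher in the same libraries as Usp18 and Isg15, and their part in those results was not tested. The markers of the leukemia cells and their gate, Kit, Cd34, Myb, Runx1, Mpo and Gfi1, summed to 24787 to 29322 in oil and 18007 to 28434 in tamoxifen. Cd34, a marker of early progenitors, varied widely within both groups, from 287.5 to 843 in oil and from 201 to 1052 in tamoxifen; its log2 fold change was 0.24, or 0.92 without tamoxifen 1. Myb, a transcription factor of progenitors, was lower in every tamoxifen library (3097 to 5188) than in every oil library (5328 to 6692), as was Runx1 (9996 to 11220 against 11592 to 12791), beside 9.69% of all genes. Gfi1, a transcriptional repressor, was low throughout but higher in every tamoxifen library (11.1 to 20.4) than in every oil library (1.86 to 4.82), beside 7.86%. Limma called none of these 4, and without tamoxifen 1 the log2 fold changes were -0.16 for Myb, -0.13 for Runx1 and 1.52 for Gfi1.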

How the data were processed

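RNA-seq libraries of 3 oil and 3 tamoxifen mice were analysed, grouped by the sample labels. Per the labels and methods, RNA was extracted with Trizol, and the authors processed reads with STAR and DESeq2 against mm10; versions, annotation and strand setting are not given in the sources used here. The deposited values are a normalized signal: each gene's count, scaled by the size factor of its library. All values above 0 (100%) were whole multiples of what 1 read was worth, within 0.01 read, so that whole reads were recovered. Of 55450 rows, 1832 name no gene and were left out (0.0400% to 0.0614% of reads); 1402 gene names split by commas were rejoined. Genes were matched to GENCODE vM21 (GRCm38). Upstream sequences came from RefSeq (GRCm38.p6) and held 5 of the 6 genes.

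Genes at 10 or more in at least 3 libraries (12298) were tested on log2(value + 1) with limma 3.58.1 in R 4.3.3, with a mean-variance trend and Benjamini-Hochberg adjustment at 0.05; a log2 fold change on this scale understates that of low genes. Alternatives were edgeR 4.0.16 and DESeq2 1.42.0 on recovered reads, other scalings, filters and pseudocounts (0.5 and 5), a loess correction for GC content, library weights, the replicate number as a block, and leaving out each library. Chosen after seeing the data were edgeR, DESeq2 and the GC correction without tamoxifen 1, DESeq2 on all named rows, and the block for ratios. On simulated data limma recovered 98.0%, edgeR 97.0% and DESeq2 95.5% of 200 genes changed by 2 on the log2 scale among 12298, and called 13, 14 and 17 unchanged genes. The simulation had a dispersion of 0.05 and no library that deviated as tamoxifen 1 did. Its shares check the code and do not give the sensitivity in these data. Counting intervals and floors cover counting error only. Usp18 shares 124 exonic bases with Gm44148 on the opposite strand and Uba7 233 with Gm20661 on the same strand; these genes had at most 5 and 3 reads in a library. Herc6 shares 1269 of its 9292 exonic bases with Gm45193 on the same strand, which had 0 reads; how reads in shared bases were counted is not given in the sources used here. Named genes were the 6 members, the E1, E2 and Herc genes of ubiquitin, up to 3 genes of each other list with the smallest unadjusted p, the 3 most like Usp18 and Isg15, and the gate markers; C1qa, Csf1r and Vcam1 were chosen after their values were seen. Some genes of the lists are not reported here. Members and lists were chosen with earlier results of these data known.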

Additional observations from a re-analysis of the deposited data

How the results depend on the processing

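Over 22 alternatives, Usp18, Isg15, Ube2l6, Herc6 and Trim25 kept their direction, which a replicate block by itself could not change. Usp18 passed the threshold with library weights (0.52) and with DESeq2 without tamoxifen 1 (0.62). Isg15 passed it with DESeq2 (1.80, and 1.79 on all named rows), with library weights (1.26), and without tamoxifen 1 by limma (1.36), edgeR (1.40), DESeq2 (1.40) and with GC correction (1.37). Trim25 passed it with DESeq2 without tamoxifen 1 (0.34). Uba7 turned negative with library weights (-0.064) and without tamoxifen 1 by limma (-0.048), edgeR (-0.029), DESeq2 (-0.030) and with GC correction (-0.036). Leaving out each library in turn gave log2 fold changes of 0.60 to 0.97 for Usp18, 1.36 to 1.97 for Isg15, -0.048 to 0.42 for Uba7, 0.21 to 0.61 for Ube2l6, 0.0064 to 0.43 for Herc6 and 0.23 to 0.35 for Trim25. The cause of these changes was not tested.

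Of the 6 genes limma called 0 in 6 libraries, DESeq2 called 1 (1 on all named rows), library weights 2, and without tamoxifen 1 limma 1, edgeR 1, DESeq2 3 and the GC correction 1 (0 to 1 on leaving out each library). Of all genes, limma called 0, DESeq2 78 (71 on all named rows), the GC correction 2 and library weights 782, and without tamoxifen 1 limma called 41, edgeR 46, DESeq2 253 and the GC correction 45 (0 to 41 on leaving out each library). At an unadjusted p under 0.05, limma found 550 genes, 1111 with no expression filter, 2872 with library weights, 886 by DESeq2 on all named rows, and without tamoxifen 1 found 1488 by limma, 1481 by edgeR, 1275 by DESeq2 and 1431 with GC correction (225 to 1488 on leaving out each library).

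The labels give both groups the numbers 1 to 3. Same-numbered libraries correlated at -0.024, 0.061 and -0.15 in their deviations from the group means. Tamoxifen 1 enters the mean of its group and so all 3 correlations, which therefore cannot settle whether the libraries were paired. With the number as a replicate block limma called 0 genes and found 426 at an unadjusted p under 0.05. Each number holds 1 library per group, so the block cannot change a log2 fold change (Usp18 0.81, Isg15 1.70), only its error. Usp18 and Herc6 had 133 to 373 reads in a library, which gives counting errors of 5.18% to 8.67%.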
